A study of Mus musculus with 6 samples.

Results

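Muscle miRNAs of the small intestinal mucosa are described here across 3 littermates and 3 Cdr1as-/- mice. The 8 miRNAs were taken by name from the 1831 miRNAs of the deposited table. Of these, mmu-miR-143-3p, mmu-miR-143-5p, mmu-miR-145a-5p and mmu-miR-145a-3p stand for smooth muscle and mesenchyme. The others, mmu-miR-1a-3p, mmu-miR-133a-3p, mmu-miR-133b-3p and mmu-miR-206-3p, are best known from striated muscle. They are called striated muscle miRNAs here as a label only, and whether the samples held striated muscle was not tested. The species prefix is left out from here on. All 8 were well above background on all 6 arrays and entered the test. The littermates are labelled wildtype. Cdr1as-/- mice lack the locus of the circular RNA Cdr1as, which was removed with Cas9 protein and a pair of guide RNAs injected into C57BL/6J embryos. The deletion was carried by the whole animal and was not limited to 1 cell type. Each array measured total RNA of 1 animal, and no treatment was given by the labels. The methods state that animals were fasted before experiments, with tap water available, and do not name the array animals. The age and sex of these animals were not given in the sources used here. Cdr1as itself was not measured on the arrays, so the genotype labels could not be checked.

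MiR-143-3p and miR-145a-5p and their other strands are cut from a shared primary transcript that is abundant in smooth muscle cells, and in the gut also in fibroblasts and other mesenchymal cells below the epithelium. They are known for keeping smooth muscle in its contractile state, and the 2 named here are the guide strands, those usually loaded into Argonaute. The miR-1 and miR-133a miRNAs are likewise made together and act on the proliferation and differentiation of heart and skeletal muscle cells. MiR-206-3p and miR-133b-3p come from a separate transcript best known from skeletal muscle. In an intestinal wall, the muscle lies mainly in the outer muscle coat and in the thin muscle layer at the base of the mucosa. In whole tissue RNA, fewer cells of a type and less RNA per cell cannot be told apart.

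The mature sequences of miR-206-3p and miR-133b-3p are shown because the levels of these neighbours did not run in parallel across the mice, and because each has a near copy among the other muscle miRNAs. They were taken from RefSeq (GRCm38.p6), which matched 2 of the 8 miRNAs in the table used here, and the capitals mark the seed, bases 2 to 8. MiR-206-3p lies at chr1:20679055-20679076 and miR-133b-3p at chr1:20682834-20682855, both on the plus strand, and their hairpins are 3686 bp apart.
miR-206-3p: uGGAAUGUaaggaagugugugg
miR-133b-3p: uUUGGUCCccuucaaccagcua
MiR-1a-3p has the seed of miR-206-3p and is identical to it at 18 of 22 positions, the 4 differences lying between positions 11 and 22. Guanine makes up 10 of the 22 bases of miR-206-3p and 6 of the 22 of miR-1a-3p. MiR-133a-3p differs from miR-133b-3p at position 22 alone. Probes for such close relatives can take up each other's RNA, and how far they did so was not tested.

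Littermate 3 stood apart from the other arrays before any scaling. Its miRNA probes had a median processed signal of 236, against 8.75 to 29.2 on the other 5 arrays, and 100% of them were well above background there, against 41.5% to 96.8%. Cdr1as-/- mouse 1 had the next highest median, 29.2. The lowest share, 41.5%, was that of Cdr1as-/- mouse 2. Of the 2 slides, the first held the 3 littermates and Cdr1as-/- mouse 1 and the second held Cdr1as-/- mice 2 and 3. Group differences are therefore given with and without littermate 3, whereas the likeness of profiles was measured over all 6 mice. The level of a mouse is compared with the mean of littermates 1 and 2, which differed by 0.25 or less on the log2 scale in each of the 8 miRNAs.

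The guide strands of the smooth muscle cluster differed widely between mice of the same genotype. MiR-143-3p had a normalized log2 level of 10.58 in littermate 1, 10.49 in littermate 2 and 5.76 in littermate 3. In Cdr1as-/- mice 1, 2 and 3 its level was 12.06, 11.55 and 9.32. The order from high to low was Cdr1as-/- mice 1 and 2, littermates 1 and 2, Cdr1as-/- mouse 3 and littermate 3, so the groups overlapped. MiR-145a-5p had 9.39, 9.18 and 4.64 in littermates, against 10.48, 10.38 and 8.23 in Cdr1as-/- mice. Its mice fell into the same order. The profiles of both guide strands over the 6 mice, each centred on its own mean, differed by a root mean square of 0.16, whereas the profile of miR-143-3p differed by 2.16 from that of its own other strand, miR-143-5p.

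**Figure D1:**
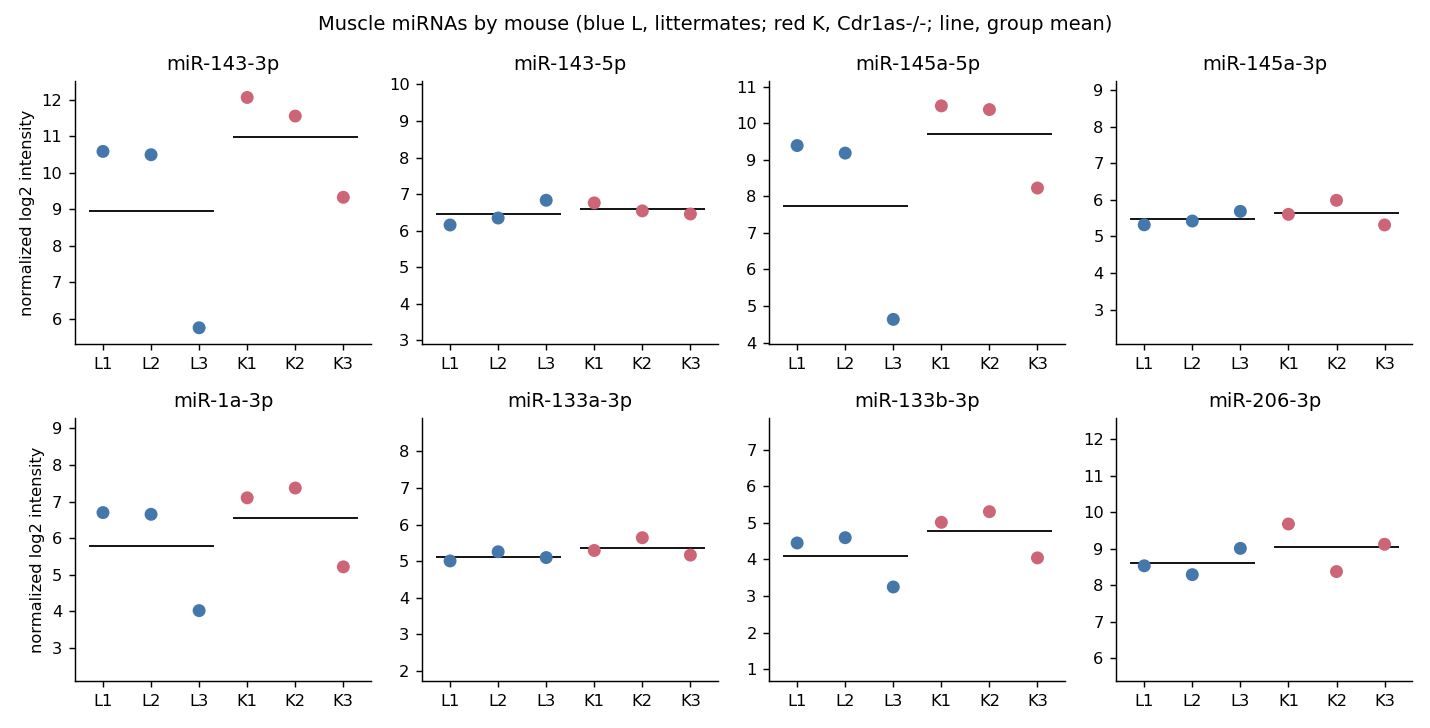
Normalized log2 intensity (y axis, an equal span in each panel) of the 8 muscle miRNAs in littermates (L1 to L3, blue) and Cdr1as-/- mice (K1 to K3, red), with a line at each group mean. MiR-143-3p and miR-145a-5p share 1 pattern, lowest in L3 and next lowest in K3, whereas miR-143-5p and miR-145a-3p stay within 0.68 over the 6 mice.

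Relative to the mean of littermates 1 and 2, miR-143-3p was 1.52 higher in Cdr1as-/- mouse 1, 1.01 higher in mouse 2, 1.21 lower in mouse 3 (-1.21) and 4.78 lower in littermate 3 (-4.78), all on the log2 scale. The corresponding differences of miR-145a-5p were 1.19, 1.09, -1.06 and -4.65. The 2 guide strands thus lay above littermates 1 and 2 in the same 2 Cdr1as-/- mice and below them in the same Cdr1as-/- mouse. By this difference, counted from the highest of the 1635 miRNAs tested, miR-143-3p and miR-145a-5p ranked 58 and 99 in Cdr1as-/- mouse 1, 4 and 3 in mouse 2 and 1617 and 1595 in mouse 3. On the array of mouse 2, 1042 miRNAs were well above background, fewer than the 1635 ranked. After scaling the scanner signal to the 75th percentile of each array instead, the difference of miR-143-3p was 0.54 in mouse 1, 1.05 in mouse 2 and -1.59 in mouse 3.

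Within the Cdr1as-/- group alone, few miRNAs were as variable. The highest and lowest of the 3 Cdr1as-/- mice were 2.73 apart in miR-143-3p, a range that 2 of the 1635 miRNAs exceeded, and 2.25 apart in miR-145a-5p, exceeded by 3. In miR-1a-3p, 1 of the 4 striated muscle miRNAs, they were 2.16 apart, exceeded by 5. The other striated ranges were narrower: 1.30 in miR-206-3p, 1.26 in miR-133b-3p and 0.48 in miR-133a-3p, exceeded by 167, 190 and 1054. The median range of all miRNAs tested was 0.60. Under 75th percentile scaling the ranges of miR-143-3p, miR-145a-5p and miR-1a-3p were 2.64, 2.44 and 2.26, with 0, 3 and 4 wider ones. Cdr1as-/- mice 2 and 3 shared a slide, and miR-143-3p differed by 2.22 between them.

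The other strands of the smooth muscle cluster did not follow the guides. MiR-143-5p had levels of 6.15, 6.34 and 6.83 in littermates, against 6.76, 6.54 and 6.46 in Cdr1as-/- mice. MiR-145a-3p had 5.32, 5.42 and 5.69 in littermates, against 5.61, 5.99 and 5.32 in Cdr1as-/- mice. Littermate 3, the lowest mouse for both guides, was the highest mouse for miR-143-5p and second highest for miR-145a-3p. The range over the 3 Cdr1as-/- mice was 0.30 in miR-143-5p, a range that 1381 of the 1635 miRNAs exceeded. The processed signal of the brightest miR-143-5p probe, before any normalization, was 1460 in littermate 3 and 39.6 and 58.6 in the other littermates, on the array whose signal was raised in general, and the part of that raised signal in the normalized value was not tested.

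Of the striated muscle group, miR-1a-3p, the shared miRNA of heart and skeletal muscle, had the same 2 lowest and 2 highest mice as the smooth muscle guides, although its profile differed from that of miR-143-3p by a root mean square of 0.99. It had levels of 6.70, 6.65 and 4.02 in littermates, against 7.10, 7.37 and 5.21 in Cdr1as-/- mice. Littermate 3 and Cdr1as-/- mouse 3 were again the 2 lowest, at -2.66 and -1.46 from the mean of the first pair of littermates, and Cdr1as-/- mice 1 and 2 were the highest, at 0.43 and 0.70. MiR-133b-3p had 4.45, 4.60 and 3.25 in littermates, against 5.02, 5.31 and 4.04 in Cdr1as-/- mice, with the same 2 mice lowest.

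Its near copy miR-133a-3p and its transcript partner miR-206-3p did not show this pattern. MiR-133a-3p had 5.01, 5.26 and 5.10 in littermates, against 5.29, 5.64 and 5.17 in Cdr1as-/- mice, and no mouse stood more than 0.51 from the mean of littermates 1 and 2. MiR-206-3p had 8.53, 8.29 and 9.01 in littermates, against 9.68, 8.37 and 9.12 in Cdr1as-/- mice. It was highest in Cdr1as-/- mouse 1, and Cdr1as-/- mouse 3 and littermate 3, the lowest mice for miR-1a-3p, came next. From the profile of miR-1a-3p over the 6 mice, that of miR-133b-3p differed by a root mean square of 0.55, that of miR-133a-3p by 1.08 and that of miR-206-3p by 1.38.

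**Figure D2:**
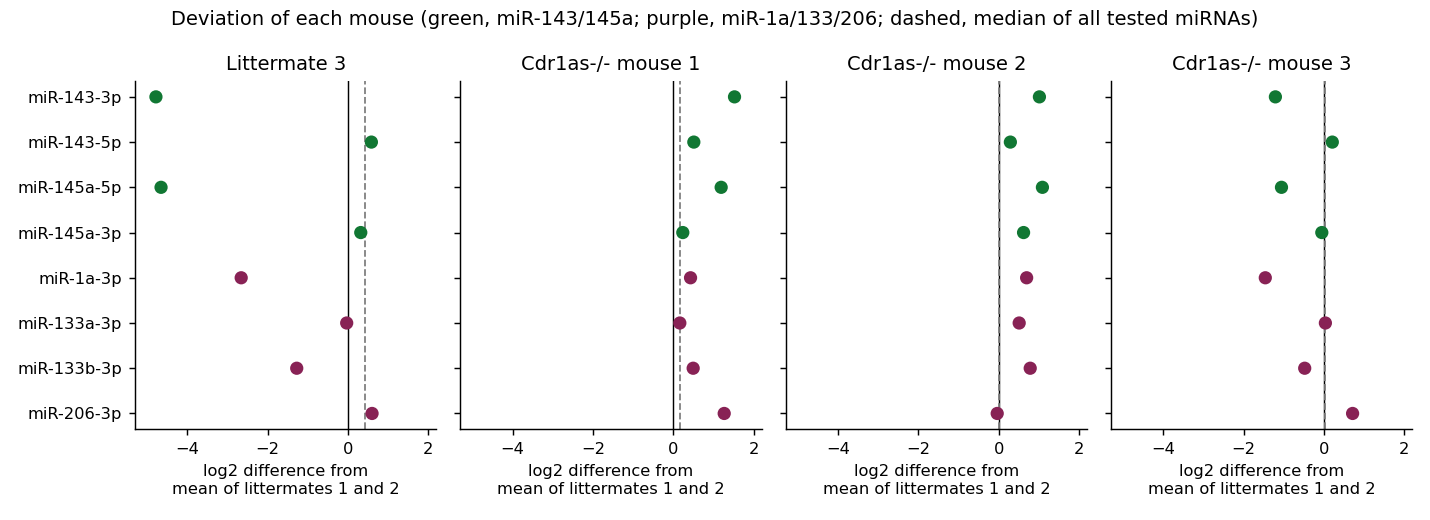
Log2 difference of 4 mice from the mean of littermates 1 and 2 (x axis) for the 8 muscle miRNAs (y axis; green, smooth muscle and mesenchyme; purple, striated muscle), with the median of all 1635 tested miRNAs as a dashed line. Littermate 3 holds miR-143-3p at -4.78 and miR-1a-3p at -2.66 but miR-206-3p at 0.60, and Cdr1as-/- mouse 3 holds them at -1.21, -1.46 and 0.71.

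The levels rest on several probes of a miRNA, and these parted in dim miRNAs. All 5 probes of miR-143-3p were lower in littermate 3 than in littermates 1 and 2, by a log2 difference between -4.90 and -4.68, and so were the 5 of miR-145a-5p, between -4.84 and -3.13. The 5 probes of miR-1a-3p were lower as well, between -3.32 in the brightest and -1.05 in the dimmest. In miR-133b-3p, 1 of 3 probes was well above background on all 6 arrays. That probe was lower in littermate 3 by a difference of -2.39, while the remaining probes stood at 0.07 and 0.13. In miR-133a-3p the brightest probe was at -0.52 and the 5 probes reached up to 0.22.

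**Figure D3:**
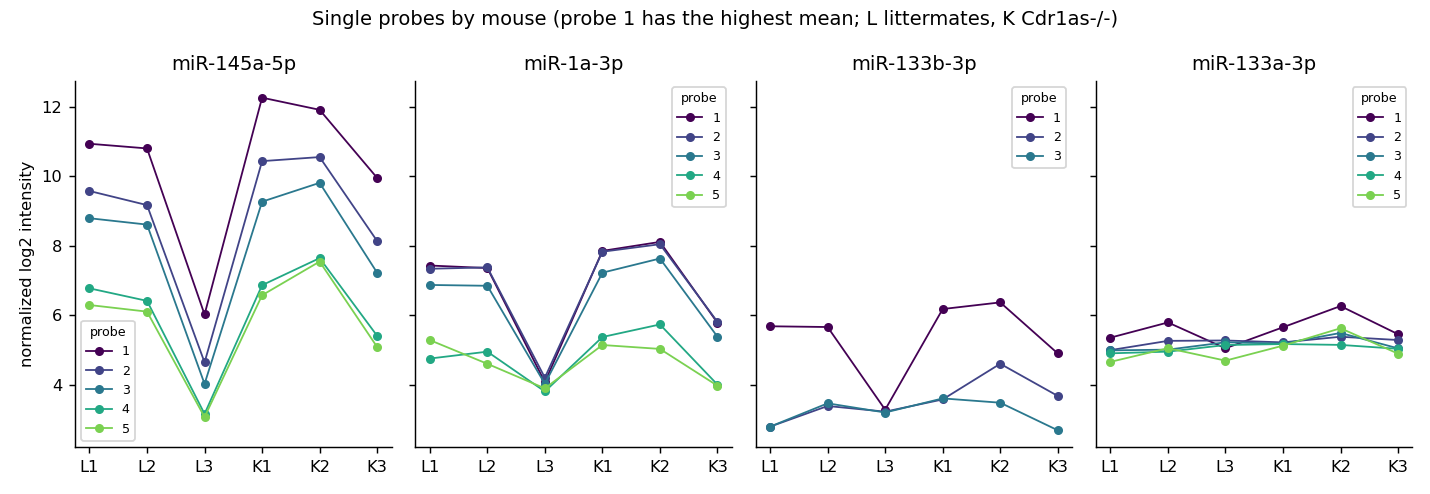
Normalized log2 intensity (y axis) of each probe of miR-145a-5p, miR-1a-3p, miR-133b-3p and miR-133a-3p in littermates (L1 to L3) and Cdr1as-/- mice (K1 to K3), numbered from the probe with the highest mean. The 5 probes of miR-145a-5p dip together in L3 and K3, whereas the dip of miR-133b-3p in L3 is carried by 1 of its 3 probes. In K3 its probes stood at -0.77, 0.59 and -0.44 from the mean of L1 and L2.

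Before normalization, the signal of the muscle guides was not low in littermate 3. The brightest miR-143-3p probe had a processed signal of 1420, 1620 and 1170 in littermates, against 9070, 3550 and 688 in Cdr1as-/- mice. The brightest miR-145a-5p probe had 1070, 1090 and 782 in littermates, against 5780, 2730 and 614 in Cdr1as-/- mice. Littermate 3 thus lay near the other littermates on the scanner's scale, on an array whose typical probe was far brighter than theirs. Cdr1as-/- mouse 3 was the lowest of the 6 for both miRNAs on that scale, whereas littermate 3 was the lowest on the normalized scale. The array of Cdr1as-/- mouse 3 had a median probe signal of 11.2, equal to that of littermate 2. The brightest miR-206-3p probe had 157, 141 and 4840 in littermates, against 1480, 172 and 334 in Cdr1as-/- mice, so that it was brightest on the 2 arrays with the highest median signal.

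The base composition of the miRNAs moved with some arrays. Over the 1635 miRNAs tested, the share of guanine had a Spearman correlation with the difference from littermates 1 and 2 of 0.43 in littermate 3, 0.43 in Cdr1as-/- mouse 1, 0.01 in mouse 2 and 0.53 in mouse 3. This is a description over miRNAs that share each library. Guanine made up 10 of 22 bases in miR-206-3p and 8 of 21 in miR-143-5p, which stood at 0.60 and 0.58 in littermate 3. The other 6 held 3 to 6, and of these miR-145a-3p, with 4 of 22, was also higher, at 0.32. Among the 1635 miRNAs, miR-206-3p and miR-143-5p ranked 722 and 733 from the highest there. The third of miRNAs richest in guanine, which holds both, had a median of 0.91 in that mouse. The part of guanine in the values was not tested.

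Between genotypes, no muscle miRNA passed the test, with all 6 mice or without littermate 3. With all 6 mice, 0 of the 8 had an adjusted p below 0.05 (limma with Benjamini-Hochberg adjustment over 1635 miRNAs, of which 0% passed), and 0 had an unadjusted p below 0.05 (0.367% of all), nor did any under 75th percentile scaling (0.122%) or by the methods' t-test (1.28%, and 10.1% without littermate 3). Without littermate 3, 0 of the 8 had an unadjusted p below 0.05 by limma in the deposited values (13.6% of all). Under 75th percentile scaling without that mouse it was also 0 (16.3% of all). MiR-143-3p had a mean of 8.94 ± 2.76 for the littermate group and of 10.98 ± 1.45 for the Cdr1as-/- group (SD, n = 3 each). The difference was 2.03 on the log2 scale (SE 1.47, a ratio of 4.10, adjusted p = 0.999966), and without littermate 3 it was 0.44 (SE 0.68, adjusted p = 0.699). MiR-145a-5p averaged 7.74 ± 2.69 and 9.69 ± 1.27 (SD, n = 3 each), a difference of 1.96 (SE 1.40) that became 0.41 (SE 0.61) without littermate 3. Littermate 3 thus decided the size of the difference for both guide strands.

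MiR-1a-3p averaged 5.79 ± 1.53 in littermates and 6.56 ± 1.18 in Cdr1as-/- mice (SD, n = 3 each), a difference of 0.77 (SE 0.93). Without littermate 3 it turned to -0.11 (SE 0.57), and to 0.02 under 75th percentile scaling without that mouse. MiR-206-3p differed by 0.45 (SE 0.40), and by 0.65 without littermate 3 (SE 0.37, adjusted p = 0.376). MiR-133b-3p differed by 0.69 (SE 0.51), and by 0.27 without littermate 3. The differences of miR-133a-3p (0.25), miR-145a-3p (0.16) and miR-143-5p (0.14) were smaller than or close to their standard errors of 0.24, 0.27 and 0.27.

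Most differences were above 0, and the sign of a small one depended on the scaling. With all 6 mice, 8 of 8 muscle miRNAs had the higher mean in Cdr1as-/- mice, against 38.6% of all miRNAs tested, and without littermate 3, 7 of 8 against 57.4%. Under 75th percentile scaling the counts were 7 of 8 against 22.6%, and without littermate 3 they were 7 of 8 against 43.9%. The median of all miRNAs tested shifted from -0.07 in the deposited values to -0.23 under 75th percentile scaling, and without littermate 3 from 0.10 to -0.12. Under that scaling without littermate 3, miR-143-3p stood at -0.0015 (SE 0.55) and miR-145a-5p at 0.10. No muscle miRNA had groups that did not overlap with all 6 mice (3.12% of all). Without littermate 3, miR-143-5p alone was higher in all 3 Cdr1as-/- mice than in both littermates (20.9% of all), by 0.34 (SE 0.23, adjusted p = 0.412).

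**Figure D4:**
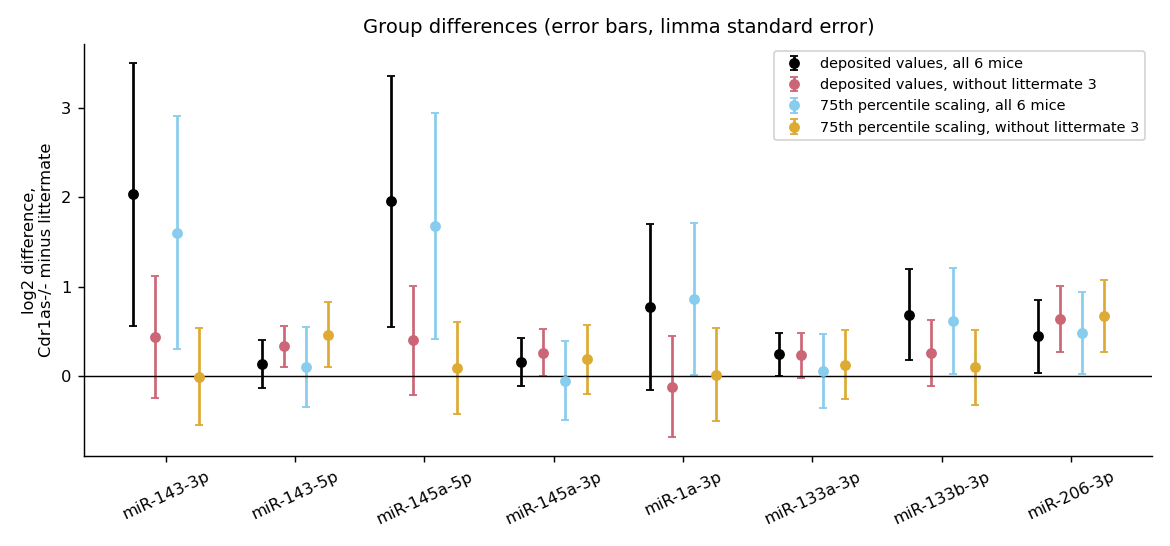
Log2 difference of Cdr1as-/- minus littermate means (y axis, with the limma standard error as bars) for the 8 muscle miRNAs, in the deposited values and under 75th percentile scaling, with all 6 mice and without littermate 3. MiR-143-3p moves from 2.03 to 0.44 when littermate 3 is left out and to -0.0015 under both changes.

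The median difference of the 4 smooth muscle miRNAs was 1.06 with all 6 mice and 0.37 without littermate 3, and that of the 4 striated muscle miRNAs was 0.57 and 0.25. The groups are mixed, because 2 of the 4 smooth muscle miRNAs are strands that did not move with their guides. Summed on the unlogged scale, the 4 smooth muscle miRNAs lay between 244 and 2313 in littermates and between 1069 and 5840 in Cdr1as-/- mice. The striated muscle sum lay between 476 and 575 in littermates and between 587 and 1027 in Cdr1as-/- mice. These 2 striated ranges did not overlap, but miR-206-3p made up most of the sum in every mouse, and its own groups overlapped. Of single miRNAs, 3.12% had groups that did not overlap, and no such share was worked out for sums. Neither sum was tested.

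Markers of the other cell types that mucosa can hold were set beside the muscle miRNAs mouse by mouse. In Cdr1as-/- mouse 1, the median difference from littermates 1 and 2 was 1.36 for miR-143-3p with miR-145a-5p and 0.46 for the striated muscle group, whereas it was -0.35 for 8 mesenchymal miRNAs, -0.35 for 9 epithelial ones, -0.58 for 6 immune ones and -0.40 for 2 endothelial ones. In Cdr1as-/- mouse 2 it was 1.05 for the guides, 0.60 for striated muscle, 0.20 for mesenchyme, 0.36 for endothelium, 0.27 for immune cells and -0.07 for epithelium. In Cdr1as-/- mouse 3 it was -1.13 for the guides, -0.22 for striated muscle, -0.90 for mesenchyme, -1.01 for endothelium, -0.54 for immune cells and -0.06 for epithelium. Mouse 2 had the muscle guides up together with all 8 mesenchymal, both endothelial and all 6 immune miRNAs, mouse 3 had most of these lists down with the guides, and mouse 1 had the muscle guides up with the medians of these lists down. Under 75th percentile scaling the guides of mouse 1 were at 0.49, with the epithelial list at -1.97 and all tested miRNAs at -0.36.

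In littermate 3, the median of each list of another cell type but the neural one was lower, so the muscle guides were not lower by themselves. Its median was -4.72 for the guides, -3.54 for immune, -3.08 for epithelial, -1.96 for erythroid, -1.66 for mesenchymal and -1.37 for endothelial miRNAs, against 0.10 for neural miRNAs and 0.43 for all tested. Single members were higher: 2 of 8 mesenchymal, 1 of 2 endothelial, 1 of 6 immune and 1 of 3 erythroid miRNAs. Of the 5 neural miRNAs, 2 were well above background on all 6 arrays, and 1 of these, miR-128-3p, stood at -2.35. The summed level of the 9 epithelial miRNAs was 67469 in littermate 3 and between 135490 and 147374 in the other mice. All 9 epithelial miRNAs were well above background on all 6 arrays. The median of the 3 erythroid miRNAs was -0.99, -0.85 and -0.59 in Cdr1as-/- mice 1, 2 and 3, but miR-144-5p stood at 0.78 in mouse 2. Littermates 1 and 2 themselves were far apart in miR-451a, at 9.95 and 8.03, so that Cdr1as-/- mouse 2, at 7.95, was close to littermate 2. The part of tissue makeup in the muscle values was not tested.

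**Figure D5:**
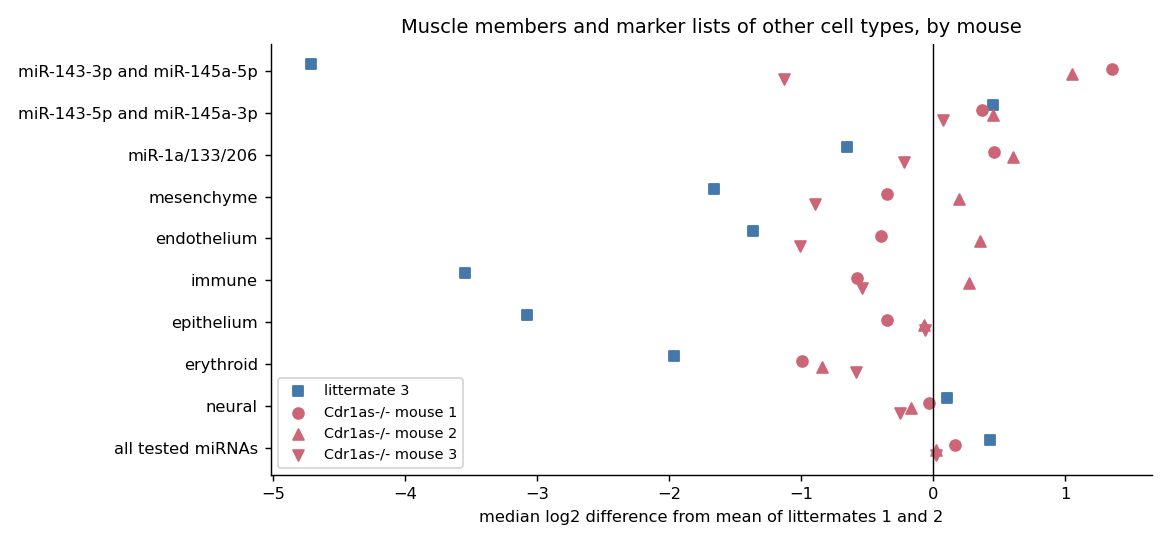
Median log2 difference from the mean of littermates 1 and 2 (x axis) of the muscle miRNAs and of marker lists for other cell types (y axis), with littermate 3 as blue squares and the Cdr1as-/- mice in red. The 2 guide strands span 1.36 to -1.13 over the Cdr1as-/- mice, against 0.20 to -0.90 for mesenchyme and 0.36 to -1.01 for endothelium. The spans are 0.27 to -0.58 for the immune list, -0.06 to -0.35 for the epithelial list and 0.02 to 0.16 for all tested miRNAs. Under 75th percentile scaling, not drawn here, the epithelial list spans -0.34 to -1.97.

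Mesenchyme was itself not uniform. The miR-199a, miR-199b and miR-214 guides, which come from transcripts of fibroblast-like cells, were lower in Cdr1as-/- mice 1 and 3. MiR-199a-3p differed from littermates 1 and 2 by -1.19, 0.38 and -1.56 in Cdr1as-/- mice 1, 2 and 3. MiR-143-3p, at 1.52, 1.01 and -1.21, therefore parted from it in mouse 1. MiR-100-5p and miR-10b-5p, by contrast, were between 0.18 and 0.40 above the mean of littermates 1 and 2 in all 3. Littermate 3 was also higher, by 0.30 in each, so the rise was not limited to Cdr1as-/- mice. In Cdr1as-/- mouse 2, miR-10b-5p was below littermate 2. MiR-100-5p was above littermates 1 and 2 in all 3 Cdr1as-/- mice, as were 20.9% of all miRNAs tested.

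The other muscle miRNAs, namely the remaining strands and paralogs of the 8 with miR-208, miR-499 and miR-486, gave few measurable values. Of 16 named, 13 were in the table, 11 entered the test and 1, miR-1b-3p, was well above background on all 6 arrays. With all 6 mice, 5 were higher and 6 lower in Cdr1as-/- mice and 0 passed the test, before or after adjustment. Without littermate 3, 1 had an unadjusted p below 0.05 (13.6% of all miRNAs did), miR-208a-5p, a strand of the miRNA encoded within a heart myosin gene, which stood at -0.90 (adjusted p = 0.241).

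Outside the muscle miRNAs, 1031 miRNAs measured on all 6 arrays were ranked by the likeness of their profile over the 6 mice. The 3 nearest to miR-143-3p were miR-142a-3p, a miRNA of blood cells, at a root mean square difference of 0.82, miR-125b-5p at 0.89 and miR-3968 at 0.90. All were farther from it than miR-145a-5p, at 0.16, and nearer than miR-1a-3p, at 0.99. Littermate 3 was included, and no ranking was made without it. MiR-142a-3p stood at -4.15 in littermate 3, near the -4.78 of miR-143-3p. In Cdr1as-/- mice 1, 2 and 3 it stood at -0.12, 0.31 and -0.42, against 1.52, 1.01 and -1.21 for miR-143-3p. The 3 nearest to miR-1a-3p were miR-125b-5p at 0.21, miR-126a-3p, a miRNA of endothelium, at 0.45 and miR-365-3p at 0.51. MiR-125b-5p had levels of 8.06, 7.96 and 4.87 in littermates, against 8.13, 8.65 and 6.69 in Cdr1as-/- mice, the dips in littermate 3 and Cdr1as-/- mouse 3 that miR-1a-3p also had.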

How the data were processed

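Small RNA of small intestinal mucosa was measured on 6 one-colour arrays. Per the labels, dephosphorylated total RNA was labelled with Cy3, and Agilent Feature Extraction 11.0.1.1 is named in the submitters' processing notes, whereas the methods name a miRCURY array. The authors deposited scanner output, the intensity of each spot after subtraction of the local background, and tables of normalized log2 values per probe and per miRNA, whose normalization is not given in the sources used here. Each miRNA value equals, within 0.0002, the logarithm of the averaged linear intensity of up to 5 probes. The deposited table also holds the authors' fold changes and p-values, which were not used.

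The deposited log2 values of 1635 miRNAs entered a limma 3.58.1 model (R 4.3.3, lmFit and eBayes), with p-values adjusted after Benjamini and Hochberg over all of them. These were the miRNAs that at least 1 group had well above background on each of its arrays. The number of arrays limits the precision. Groups and replicate numbers came from the sample titles. The deviations of same-numbered samples had correlations of -0.77, 0.58 and -0.24. They were taken from the means of groups of 3 mice, so they cannot settle whether pairs exist. The labels mark no pairing, and the samples were not treated as pairs. The code was tested on simulated data. Tables were prepared with pandas 2.3.3, NumPy 2.4.6 and SciPy 1.17.1 under Python 3.11.15, and figures drawn with matplotlib 3.10.9.

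Named miRNAs are the 8 members, those of the fixed marker lists that passed a threshold or define a list, and the 3 nearest profiles to miR-143-3p and miR-1a-3p. Members and lists were chosen with earlier results of these data known, and some examples from the lists (miR-199a-3p, miR-100-5p and miR-10b-5p) after their values were seen. Alternatives were 75th percentile scaling of the scanner signal, normexp (offset 50) with quantile normalization, the brightest probe per miRNA, no filter on dim probes, slide or replicate number as a block, the methods' t-test, and each replicate left out.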

Additional observations from a re-analysis of the deposited data

How the results depend on the processing

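In all alternatives, 0 of the 8 muscle miRNAs had an adjusted p below 0.05, and 107 of 112 alternative values kept the direction of the difference in the report. That count includes values that could not turn. No filter on dim probes, the replicate block and the methods' t-test leave each difference unchanged by design. The 5 that turned were close to 0: miR-143-3p under 75th percentile scaling without littermate 3 (-0.0015, a combination chosen after seeing the data), miR-143-5p without littermate 1 (-0.0029), miR-145a-3p under 75th percentile scaling (-0.046) and without Cdr1as-/- mouse 2 (-0.016), and miR-1a-3p without littermate 3 (-0.11). Leaving out 1 mouse at a time gave differences from 0.44 to 2.86 in miR-143-3p, 0.41 to 2.78 in miR-145a-5p, -0.11 to 1.45 in miR-1a-3p, 0.27 to 1.06 in miR-133b-3p, 0.14 to 0.79 in miR-206-3p, 0.11 to 0.35 in miR-133a-3p, -0.0029 to 0.34 in miR-143-5p and -0.016 to 0.32 in miR-145a-3p, and the lowest values of the first 4 were those without littermate 3.

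With the replicate number as a block (replicate block), 2 muscle miRNAs had an unadjusted p below 0.05, miR-143-3p and miR-145a-5p, against 0 without the block (over all 1635 miRNAs, 3 with the block and 6 without), and 0 passed after adjustment (adjusted p = 0.999965). The median differences, which this block cannot change by design, were 1.06 for the smooth muscle and 0.57 for the striated muscle miRNAs. The numbers do not mark a pairing in the labels. With the slide as a block, the difference of miR-143-3p was 3.11 and rested on Cdr1as-/- mouse 1 against the 3 littermates of its slide.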
